A study of Mus musculus with 2 samples.

Results

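De novo lipogenesis is the route by which hepatocytes build fatty acids from carbohydrate carbon. Its genes were read on microarrays of cultured hepatocytes from control and liver-specific *Drp1* knockout (*Drp1*LiKO) mice. The set held 10 of the 37074 gene names on the array: the enzymes *Acly*, *Acaca*, *Fasn*, *Me1*, *Elovl6* and *Scd1*, the lipogenic protein gene *Thrsp*, the lipid droplet enzyme gene *Pnpla3*, and the transcription factor genes *Srebf1* and *Mlxipl*. Every non-control probe with 1 of these names was taken, which gave 23 probes. Of these genes 9 were detected, and *Pnpla3* was not well above background on either array. None of the 9 passed the threshold for a difference between genotypes, which 6.29% of all detected genes passed. Of the 9, 7 lay between -0.28 and 0.18 on the log2 scale, and 58.05% of all genes lay within 0.3 of no difference. *Thrsp* had 2.03-fold higher signal in *Drp1*LiKO hepatocytes and *Scd1* had 1.70-fold lower signal.

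Primary hepatocytes were isolated from *Drp1*LiKO mice (*Alb-Cre* Tg/+ *Drp1* flox/flox) and from control mice. The sample label calls the control wild type, and the study's methods give control mice as *Drp1* flox/flox littermates, which carry the floxed alleles without the Cre transgene. The mouse strain of the cross, age, sex and number of mice behind each culture were not given for these samples in the sources used here. Cre was driven by the albumin promoter, which is active in hepatocytes, so loss of *Drp1* and presence of Cre cannot be told apart. The mice had been fed ad libitum, the cells were seeded in medium with 4500 mg/L glucose, 1 µM insulin and 10% serum, the medium was changed after 4 h, and RNA was taken 24 h after seeding, with no further treatment named in the labels.

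De novo lipogenesis starts with citrate, which leaves the mitochondrion and is cleaved to acetyl-CoA in the cytosol. Acetyl-CoA is carboxylated to malonyl-CoA, joined into palmitate with reducing power from NADPH, and then elongated and desaturated. In liver the pathway is known to be induced by insulin through SREBP-1c, the product of *Srebf1*, and by glucose through ChREBP, the product of *Mlxipl*. The culture medium of both genotypes held both stimuli, and no fasted or low-insulin sample was compared here.

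There was 1 array per genotype, so differences were not tested and each value describes these 2 arrays. The signal is the processed intensity of a 60-base probe after background correction, and signals of different probes are not compared. A log2 ratio is *Drp1*LiKO minus control after the 75th percentile of each array, a signal of 313 in control hepatocytes and 356 in *Drp1*LiKO hepatocytes, had been taken off. A gene passed the threshold with a Z score of at least 2 or at most -2 over the 30275 probes kept, which lay at log2 ratios of 1.30 and -1.31. Of 20165 genes detected, 1269 passed in either direction (6.29%), 702 with higher (3.48%) and 567 with lower signal (2.81%). Against this background, 0 of the 9 lipogenic genes and 0 of their 20 detected probes passed. The median log2 ratio of the 9 genes was -0.06, beside -0.05 for all genes. The median size of the ratio was 0.14, beside 0.24 for all genes, which include dim ones and were not matched for signal. With Z scores taken among probes of similar signal, *Thrsp* and *Scd1* passed. The spread of repeated spots gave a noise of the log2 ratio for each probe. It covers the array alone and not the culture or the animal.

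*Dnm1l*, the gene that encodes Drp1, checked the labels. Its brighter probe had a signal of 2602 in control hepatocytes and 1217 in *Drp1*LiKO hepatocytes, a log2 ratio of -1.28 with a Z score of -1.94, which lies in the labeled direction and just short of the threshold. Its dim probe read 22.8 and 20.9, with a log2 ratio of -0.31. Whether either probe lies in the deleted part of the gene is not given in the sources used here.

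**Figure D1:**
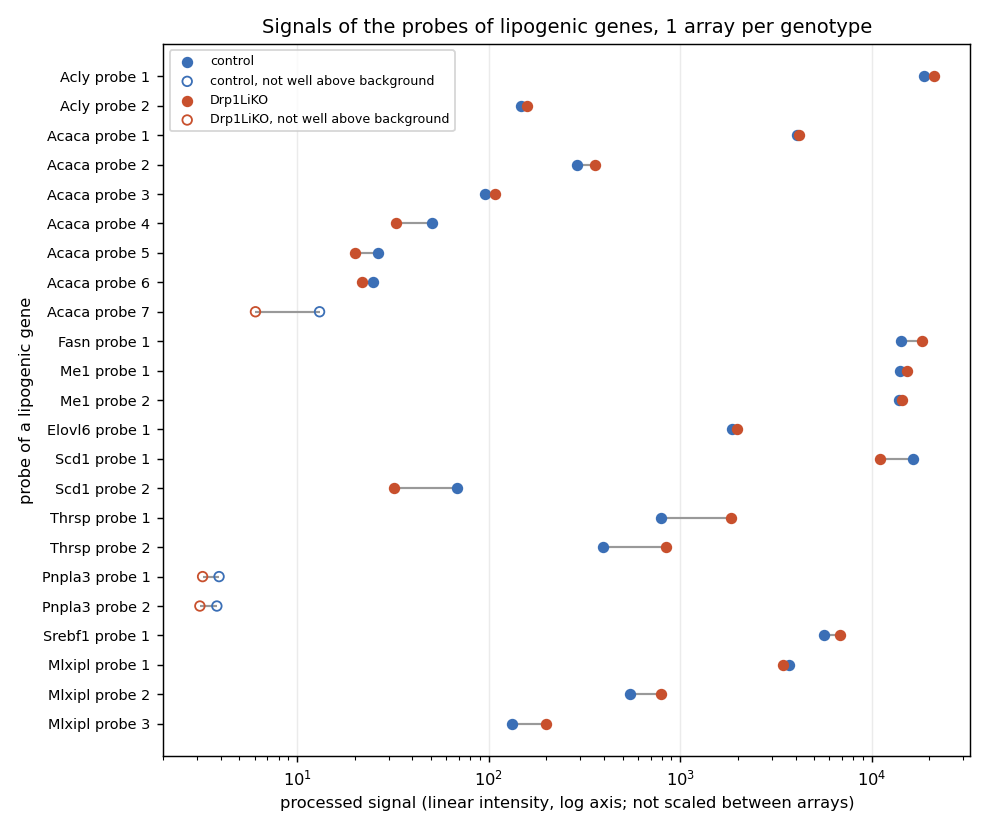
Processed signal of the 23 probes of lipogenic genes on a log axis, with control in blue and *Drp1*LiKO in red, 1 array each, joined by a line for each probe. Open circles mark signals not well above background, which include both probes of *Pnpla3*, and the widest gaps among bright probes are those of *Thrsp* and *Scd1*.

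The enzymes that make palmitate had log2 ratios near 0 on their bright probes. *Acly*, which cleaves citrate to cytosolic acetyl-CoA, read 18681 in control hepatocytes and 21056 in *Drp1*LiKO hepatocytes. After scaling this was a log2 ratio of -0.01, within the spot noise of 0.06. Its dimmer probe read 147 and 158, a log2 ratio of -0.07. Both probes of *Acly* lay within 0.1 of no difference on the log2 scale.

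*Acaca* encodes the cytosolic acetyl-CoA carboxylase that makes malonyl-CoA, the committed step of the pathway. Its brightest probe read 4056 in control hepatocytes and 4180 in *Drp1*LiKO hepatocytes, a log2 ratio of -0.14 with a spot noise of 0.10. The array held 7 probes with this name, spread along chromosome 11, and the ratios of those detected ranged from -0.80 to 0.14. The next brightest probe read 288 and 359, a log2 ratio of 0.14, and another read 95.1 and 108, a log2 ratio of -0.0035. Of the dim probes, 1 read 50.4 and 32.9, a log2 ratio of -0.80 with a Z score of -1.21 and a spot noise of 0.30. The others read 26.4 and 20.1, and 24.8 and 21.7. Their log2 ratios were -0.57 and -0.37, each with a spot noise of 0.36. The last, at 13.1 and 6.06, was not well above background on either array. The signs of the bright probes differed and the lowest ratios came from probes near the background. Every detected probe but that at 0.14, whose spot noise was 0.13, lay below 0. *Acaca* is reported as uncertain in direction.

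*Fasn*, the multifunctional synthase that builds palmitate, had 1 probe on chromosome 11 (mm9, 120668460 to 120668519, minus strand). It read 14258 in control hepatocytes and 18271 in *Drp1*LiKO hepatocytes. The log2 ratio was 0.18, with a Z score of 0.28 and a spot noise of 0.07. The difference of *Fasn* was beyond the noise of spots and far short of the threshold.

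*Me1*, the cytosolic malic enzyme that yields NADPH for fatty acid synthesis, had a pair of bright probes. The first read 14102 in control hepatocytes and 15335 in *Drp1*LiKO hepatocytes, a log2 ratio of -0.06. The second read 13934 and 14424, a log2 ratio of -0.13. Both stayed within 0.15 of no difference on the log2 scale after scaling.

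The genes that elongate and desaturate palmitate lay further apart. *Elovl6*, which elongates palmitate to stearate, read 1868 in control hepatocytes and 1981 in *Drp1*LiKO hepatocytes, a log2 ratio of -0.10 within its spot noise of 0.10. *Scd1*, the desaturase that turns stearate into oleate, read 16436 in control hepatocytes and 10997 in *Drp1*LiKO hepatocytes. This probe (mm9, chromosome 19, 44469387 to 44469446, minus strand) had a log2 ratio of -0.76, a Z score of -1.16 and a spot noise of 0.07. Its ratio was lower than that of most genes, since 7.14% of genes had a lower one, and it was the lowest among the lipogenic genes.

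A second probe named *Scd1* lies on the plus strand of chromosome 19 (mm9, 44471140 to 44471199), opposite to the strand of the bright *Scd1* probe. It read 68.7 in control hepatocytes and 32.1 in *Drp1*LiKO hepatocytes, a log2 ratio of -1.28 with a Z score of -1.95. Both probes had lower signal in *Drp1*LiKO hepatocytes, although they report opposite strands as the files give them. Of the other desaturase genes of this locus and list, *Scd2* had a log2 ratio of 0.18 and *Scd4* of 0.42, while *Scd3* had -0.42 on its brightest probe and 0.44 on the other. None of these paralogs passed the threshold.

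*Thrsp* encodes Spot 14, a small protein induced by thyroid hormone, insulin and carbohydrate that promotes lipogenesis. The probe in the body of its transcript is shown because *Thrsp* had the highest ratio of the set. It starts at base 399 of the transcript (mm9, chromosome 7, 104565562 to 104565621, minus strand), in lower case throughout because no motif is marked.
Thrsp probe: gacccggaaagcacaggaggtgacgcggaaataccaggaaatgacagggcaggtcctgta
This probe read 394 in control hepatocytes and 842 in *Drp1*LiKO hepatocytes, a log2 ratio of 0.91 with a Z score of 1.41. The brighter probe, which starts at base 796, read 794 and 1830, a log2 ratio of 1.02 with a Z score of 1.57 and a spot noise of 0.11. Both *Thrsp* probes had higher signal in *Drp1*LiKO hepatocytes, well beyond the noise of spots. Of all genes 94.8% had a lower ratio than *Thrsp*. With each gene read from its brightest probe, *Thrsp* alone among the 9 lipogenic genes differed by at least 2-fold. Of all genes, 9.96% did so in either direction and 5.34% with higher signal. The dim *Scd1* probe also differed by more than 2-fold, at a log2 ratio of -1.28. With the median of a gene's probes, *Scd1* was at -1.02 and *Thrsp* at 0.97. *Mid1ip1*, which encodes the paralog and partner of Spot 14, had a log2 ratio of 0.01.

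*Pnpla3*, which encodes a lipid droplet enzyme known as a target of SREBP-1c, was not detected. Its probe in chromosome 15 (mm9, 84016440 to 84016499) read 3.91 in control hepatocytes and 3.21 in *Drp1*LiKO hepatocytes, and the other read 3.81 and 3.11. All these signals were under the lowest signal that counted as well above background (18.2 on the control array and 15.0 on the *Drp1*LiKO array), so no ratio is given. The deposited normalized table listed the first of these probes at 3.82 in control hepatocytes and 61.1 in *Drp1*LiKO hepatocytes, and the other at 3.72 and 3.69. The first pair of values is at odds with the scanner output of the same *Drp1*LiKO array, and no level of *Pnpla3* is drawn from it. Across all probes, the rank correlation of that table with the scanner values was 1 for control and 0.959 for *Drp1*LiKO hepatocytes, so the table served only as 1 of the 12 alternatives.

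**Figure D2:**
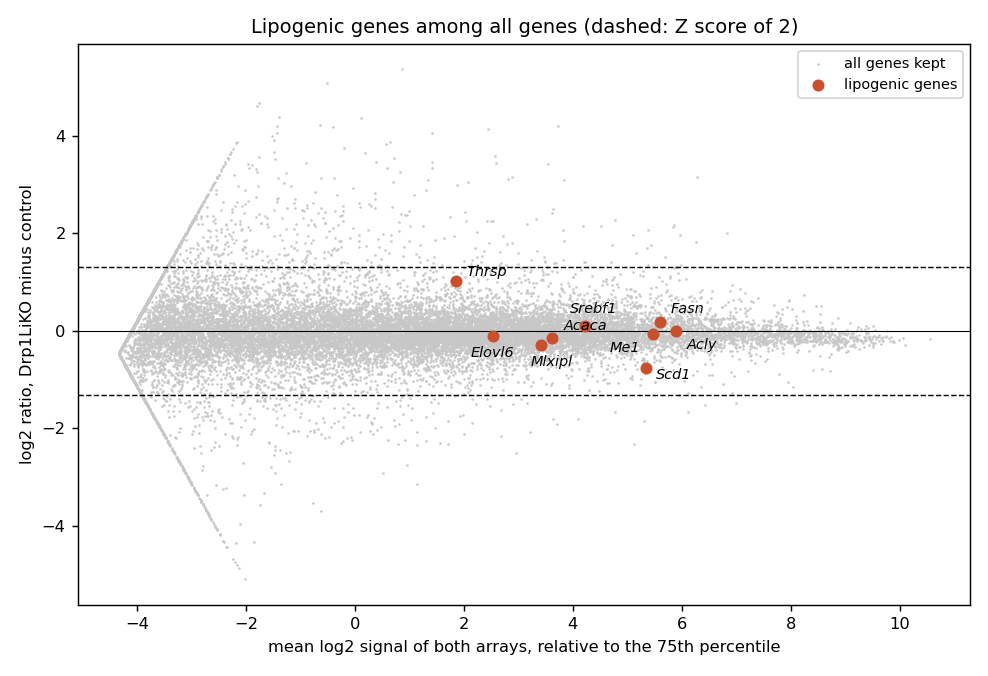
Log2 ratio of *Drp1*LiKO to control against the mean log2 signal of both arrays relative to the 75th percentile, with the 20165 genes detected in gray and the 9 detected lipogenic genes in red. Dashed lines mark Z scores of 2 and -2, and all 9 lie between them, with *Thrsp* nearest to the upper line and *Scd1* nearest to the lower one.

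The transcription factor genes had small ratios. *Srebf1*, whose product is the membrane-bound factor SREBP-1 that is cleaved and enters the nucleus under insulin, read 5606 in control hepatocytes and 6852 in *Drp1*LiKO hepatocytes. The log2 ratio was 0.11, with a Z score of 0.17 and a spot noise of 0.08. The probe does not tell SREBP-1a from SREBP-1c as far as the sources used here state.

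*Mlxipl*, which encodes the glucose-sensing factor ChREBP, gave probes of opposite sign. The brightest read 3694 in control hepatocytes and 3444 in *Drp1*LiKO hepatocytes, a log2 ratio of -0.28 with a Z score of -0.42. The next read 545 and 794, a log2 ratio of 0.36, and the dimmest read 132 and 199, a log2 ratio of 0.41. The probes with higher signal in *Drp1*LiKO hepatocytes share runs of at least 16 bases with probes of other genes, and the brightest probe does not. A stretch of 30 bases of each is shown because it carries the shared letters, with the 16 bases found in most other probes in capitals.
Mlxipl dimmest probe: tcctctaCTACACAGAGAAACCCtgtctca
Mlxipl middle probe: ggtgatgCACACCTTTAATCCCAgtacttg
The capitals of the dimmest probe stand in probes of 14 other genes, whose median log2 ratio was 0.06, and those of the middle probe in probes of 3 other genes, with a median of 0.01. The part of these shared letters in the signals was not tested. In the deposited normalized values the brightest probe had a log2 ratio of 0.09, and *Mlxipl* is reported as uncertain in direction.

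The promoters of *Thrsp* and *Fasn* are shown to set the gene with the highest ratio beside a synthase with a small one. RefSeq (GRCm38.p6) gave the 250 bases before the start for 9 of the 10 genes, in 13 promoters. Motifs known in lipogenic promoters were searched on both strands: the E-box CACGTG bound by USF and part of carbohydrate response elements, the CCAAT box bound by NF-Y, the GC box GGGCGG bound by Sp1, and the sterol response element core TCACNCCAC. In capitals are the CCAAT matches, written ATTGG where they lie on the other strand, and CCAATTGG holds a pair that overlaps.
Thrsp, chr7:97417551-97417800, minus strand: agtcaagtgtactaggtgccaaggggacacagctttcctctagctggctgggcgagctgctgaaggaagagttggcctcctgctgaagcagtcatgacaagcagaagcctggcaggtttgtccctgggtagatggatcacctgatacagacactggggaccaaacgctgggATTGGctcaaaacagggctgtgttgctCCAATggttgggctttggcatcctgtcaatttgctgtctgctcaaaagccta
Fasn, chr11:120824548-120824797, minus strand: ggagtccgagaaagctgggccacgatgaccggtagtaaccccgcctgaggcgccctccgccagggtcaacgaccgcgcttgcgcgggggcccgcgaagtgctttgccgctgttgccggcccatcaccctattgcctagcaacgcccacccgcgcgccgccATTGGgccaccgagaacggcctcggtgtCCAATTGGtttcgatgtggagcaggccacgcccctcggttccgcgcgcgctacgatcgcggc
The CCAAT matches begin 79 and 52 bases before the start of *Thrsp*, and 90, 62 and 59 bases before that of *Fasn*. Of all 32851 promoters of this length, 33.9% hold a CCAAT, 32.7% a GC box, 6.02% this E-box and 1.05% this sterol element. Neither promoter held the other motifs. The E-box stood once, 98 bases before a start of *Mlxipl*, and the sterol element once, in the other *Mlxipl* promoter. These matches describe letters in short windows and not binding.

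Other genes of the pathway were read from lists of known function, 108 distinct genes detected, of which 3 passed with higher and 1 with lower signal (3.70%, beside 6.29% of all genes). Among 22 other detected enzymes of fatty acid synthesis, elongation, desaturation and activation the median log2 ratio was 0.10, from -1.10 for the elongase gene *Elovl2* to 1.36 for *Acacb*, the mitochondrial acetyl-CoA carboxylase. *Acacb* was the 1 gene of this list past the threshold. It read 267 in control hepatocytes and 778 in *Drp1*LiKO hepatocytes, but the other *Acacb* probes had log2 ratios of 0.04 and -0.09.

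The list for NADPH supply other than *Me1* held 9 detected genes, with a median log2 ratio of -0.10. It does not separate enzymes that make NADPH from related ones. Among them *Me2*, a mitochondrial malic enzyme, passed with lower signal and is not read here as a source of NADPH. *Me2* read 126 in control hepatocytes and 51.8 in *Drp1*LiKO hepatocytes, a log2 ratio of -1.46, and its other probe had a log2 ratio of -2.34. The highest of this list was *Idh1*, the cytosolic isocitrate dehydrogenase, at 0.34.

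Partners and regulators of SREBP-1, ChREBP and LXR did not pass the threshold in either direction (0 of 19 detected, median log2 ratio 0.01). They ranged from -1.03 for the bile acid receptor gene *Nr1h4* to 0.69 for *Insig1*, an SREBP target that retains SREBP in the endoplasmic reticulum. The list of sterol synthesis genes driven by SREBP-2 had a median of 0.33 with 9 of 9 genes above 0, from 0.07 for *Cyp51* to 0.61 for *Lss*, both enzymes of cholesterol synthesis. None of these 9 passed, and SREBP-2 targets had a positive median under each scaling tried.

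Genes for glucose entry and ChREBP targets had the lowest median of the pathway lists, -0.35, with 9 of 10 genes below 0, and none passed the threshold. The lowest was *Fgf21*, a hepatic hormone gene, which read 341 in control hepatocytes and 177 in *Drp1*LiKO hepatocytes. This was a log2 ratio of -1.13 with a Z score of -1.71. The study recalls earlier work in which ER stress promoted FGF21 expression in *Drp1*LiKO mice. The opposite direction in these cultures was not tested further. *Slc2a2*, the hepatic glucose transporter, had the highest log2 ratio at 0.06, and *Pklr* and *Txnip*, established ChREBP targets, had -0.02 and -0.01. With the median of the probes of each gene in place of the brightest probe, the median of this list was -0.08 and no longer the lowest, LXR targets being at -0.24.

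Among 9 genes of insulin response and signaling the median log2 ratio was -0.25, from -0.90 for *Pik3r1* to 1.69 for *Ppargc1a*, a coactivator of gluconeogenic genes and the 1 gene of this list past the threshold. The probes of *Ppargc1a* had the same direction, 133 in control hepatocytes and 489 in *Drp1*LiKO hepatocytes for the brighter and 32.4 and 128 for the other. Of 7 LXR targets, with a median of -0.31, *Abcg1*, a cholesterol exporter abundant in macrophages, read 60.8 and 269.6, a log2 ratio of 1.97, and passed. The lowest was *Pltp* at -0.55. The calls of *Acacb*, *Me2* and *Ppargc1a* were each lost under at least 2 of the 12 alternatives, and that of *Abcg1* under none.

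Of 17 genes of glycerolipid synthesis and turnover none passed, with a median log2 ratio of -0.12. They ranged from -0.57 for *Angptl8*, which encodes a secreted regulator and no synthesis enzyme, to 1.10 for *Dgat2*. *Dgat2*, which esterifies newly made fatty acids into triglyceride, read 5793 in control hepatocytes and 14060 in *Drp1*LiKO hepatocytes, with a Z score of 1.69, and passed under 6 of the 12 alternatives. The 6 genes that restrain acetyl-CoA carboxylase or remove its product malonyl-CoA had a median of -0.18, and none passed. They ranged from -0.48 for *Stk11* to 0.31 for *Mlycd*.

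**Figure D3:**
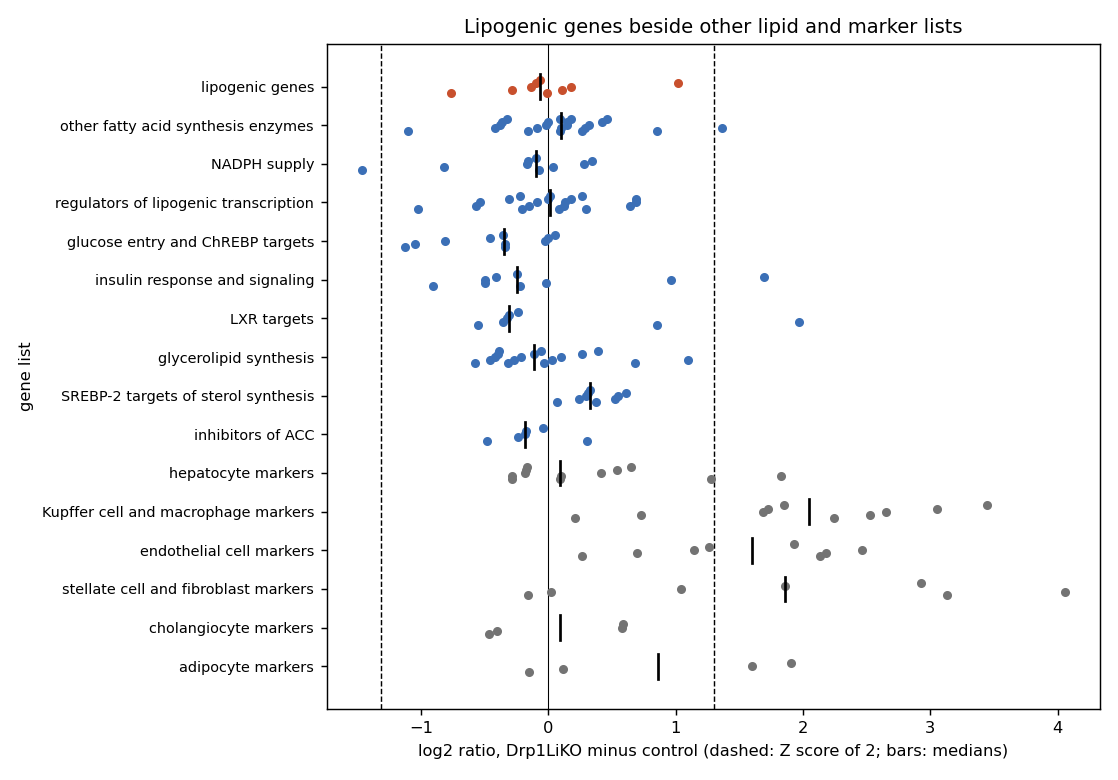
Log2 ratio of *Drp1*LiKO to control for each detected gene of the lipogenic set in red, of other lipid pathway lists in blue and of cell type markers in gray, with the median of each list as a black bar. Dashed lines mark Z scores of 2 and -2, and the lipogenic genes center near 0 at -0.06, while markers of macrophages, endothelial and stellate cells center at 2.05, 1.60 and 1.86.

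Markers checked which cells the arrays held. All 12 hepatocyte markers were detected on these arrays, with a summed signal of 849600 in control hepatocytes and 943000 in *Drp1*LiKO hepatocytes and log2 ratios from -0.28 to 1.83, of which 1, *Ahsg*, passed. Of 10 detected Kupffer cell and macrophage markers 8 passed with higher signal in *Drp1*LiKO hepatocytes, the summed signal was 11150 and 28260, and *Timd4* was not well above background. Of 8 endothelial markers 4 passed, with sums of 4123 and 8460, and of 7 detected stellate cell and fibroblast markers 4 passed, with sums of 21920 and 30060, *Lrat* not being well above background. The sums add unscaled signals, and the 75th percentile of the *Drp1*LiKO array was itself higher by 0.18 on the log2 scale. After scaling, the hepatocyte markers had a median log2 ratio of 0.10. *Egfl7*, which read 3773 and 6941 with a log2 ratio of 0.70, made up most of the endothelial sums. *Cd14*, which read 6407 and 8419 with a log2 ratio of 0.21, made up most of the macrophage sum in control hepatocytes. *Acta2*, which read 21440 and 24640 with a log2 ratio of 0.02, made up most of the stellate sums. Of the same list, *Dcn* and *Col1a2* had log2 ratios of 4.06 and 2.93. These values are of brightest probes, and other probes could differ. The lowest probe was at -0.18 for *Col1a2*, -0.49 for *Mpeg1* and -0.25 for *Stab2*, and the highest for *Acta2* was at 2.20. All detected probes of *Cd68*, *Lyz2* and *Col1a1* had higher signal. Of the macrophage, endothelial and stellate ratios on brightest probes, 2, 2 and 3 rest on a signal at the floor. Their medians of 2.05, 1.60 and 1.86 became 1.60, 0.84 and 0.80 with normexp background correction and 2.12, 2.06 and 2.93 with no floor. Of 4 detected cholangiocyte markers none passed, with a median of 0.09, and *Epcam* was not well above background. Lipogenic genes are also active in adipocytes. Of 8 adipocyte markers, *Adipoq*, *Plin1*, *Cfd* and *Retn* were not well above background on either array. The 4 detected had a median log2 ratio of 0.86, and *Cidea* and *Lpl* passed with higher signal. *Fabp4* read 816 in control hepatocytes and 834 in *Drp1*LiKO hepatocytes, and *Lep* read 102 and 126. In RNA of whole cultures, fewer cells of a type and less RNA per cell cannot be told apart, and the part of the other cell types in the ratios of *Thrsp*, *Scd1* and *Abcg1* was not tested.

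Of the 12 other ways of processing the arrays, 5 changed the ratio of any lipogenic gene, and the others changed only the threshold, the filter or the genes compared with. Under the 5, *Acly*, *Acaca*, *Scd1*, *Srebf1* and *Mlxipl* each moved by more than the spot noise with the deposited values, the median of a gene's probes or both. *Thrsp* ranged from 0.97 to 1.07 and *Scd1* from -1.02 to -0.72, so that both kept their direction in each. *Fasn* ranged from 0.15 to 0.22 and *Srebf1* from 0.10 to 0.36, always above 0, while *Me1* ranged from -0.11 to -0.02 and *Elovl6* from -0.10 to -0.03. *Acly*, *Acaca* and *Mlxipl* took either sign. *Thrsp* passed the threshold under 5 of the 12 alternatives and *Scd1* under 2.

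**Figure D4:**
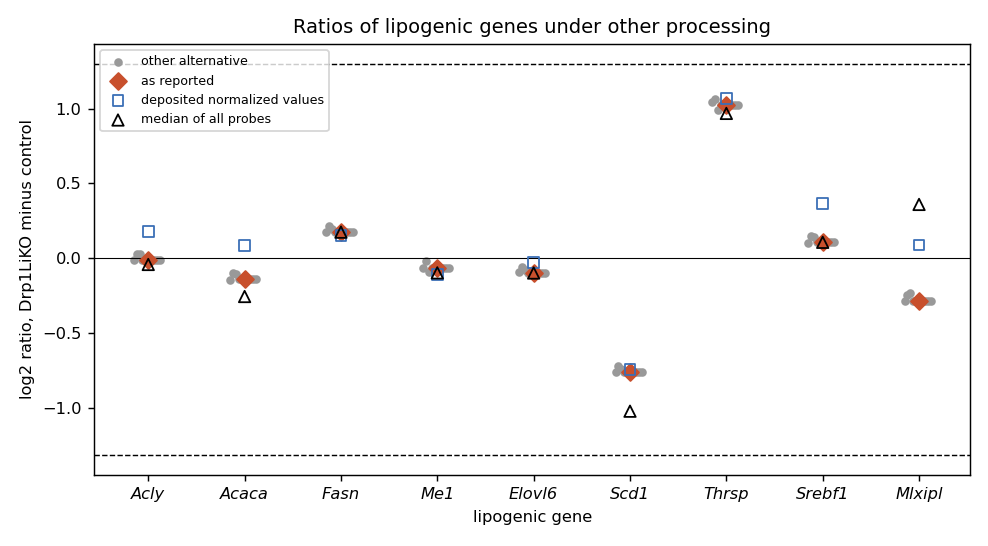
Log2 ratio of *Drp1*LiKO to control of the 9 detected lipogenic genes as reported, shown as red diamonds, and under the alternatives, with the deposited normalized values as squares and the median of all probes as triangles. Dashed lines mark Z scores of 2 and -2 as reported. *Thrsp* and *Scd1* keep their direction throughout, while *Mlxipl* changes sign with the deposited values and with the median of its probes.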

How the data were processed

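RNA of control and *Drp1*LiKO primary hepatocytes was labeled and hybridized to 1 Agilent SurePrint G3 Mouse 8x60K v2 array per genotype, both on the same slide. The authors deposited the scanner output with linear intensity values, in which Feature Extraction (9.5.1.1 per the processing notes, 10.7.1.1 per the file headers) had subtracted background, and a table of normalized intensity values whose method is not given in the sources used here.

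From the processed signals, control and outlier spots were dropped, the remaining log2 values were averaged for each probe, and each array was scaled by its 75th percentile. Of 56605 probes, 5 had every spot marked as an outlier, and 30275 were kept as well above background on at least 1 array. Dim signals were raised to the lowest signal well above background (18.2 in control, 15.0 in *Drp1*LiKO cells). No spot of the kept probes was saturated. Z scores used all kept probes, as the study's methods name a threshold of 2 but not the population, and the brightest probe stood for its gene.

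Noise came from probes printed 10 times. Gene names and mm9 coordinates are those of the files, and promoters and strands are from RefSeq (GRCm38.p6), where 9 of 10 genes matched. All 21 of their probes lie on the RefSeq strand. The text names every member, each list gene past the threshold and the highest and lowest of each list. *Pklr*, *Txnip*, *Mid1ip1*, *Scd2*, *Scd3* and *Scd4* were picked beyond this rule with values seen. Some genes first put in the lists are not reported here, and the counts leave them out. Members, lists and tests were chosen with earlier results of these data known. The steps were tested on simulated data. The tools were R 4.3.3, limma 3.58.1, Python 3.11.15, matplotlib 3.10.9, pandas 2.3.3 and numpy 2.4.6. With 1 array per genotype, the number of arrays limits precision.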

Additional observations from a re-analysis of the deposited data

How the results depend on the processing

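The 12 alternatives were quantile normalization, spike-in scaling, normexp background correction with an offset of 50, the deposited normalized values, probes well above background on both arrays, no filter, no floor, inclusion of outlier spots, a Z score in 20 bins of similar signal, a Z score from the median and median absolute deviation, the median of a gene's probes, and a 2-fold threshold. The number of lipogenic genes past the threshold with higher signal went from 0 to 1 under normexp, no filter, the Z score in bins, the Z score from the median and the 2-fold threshold, each time *Thrsp*, and to 1 with the deposited values, there *Pnpla3*. The number with lower signal went from 0 to 1 (*Scd1*) under the Z score in bins and the Z score from the median. The median of the set was 0.121 with the deposited values, which include *Pnpla3*, and from -0.075 to -0.021 otherwise. Only 5 alternatives changed any gene's ratio, and of their 45 values 7, in 5 of 9 genes, moved by more than the spot noise, all with the deposited values or the median of a gene's probes. *Acly*, *Acaca* and *Mlxipl* changed sign. Over all genes, 702 higher and 567 lower calls became 1352 and 591 with no filter, where the median of all genes was -0.465, 1719 and 1454 with the Z score from the median, 1077 and 932 at 2-fold, and 637 and 740 with the Z score in bins. The causes were not tested. Probes near background limit *Pnpla3* and the dim probes of *Acaca*. No paired analysis was possible because each genotype had 1 array, and the shared replicate number only names the samples.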
